A study of Mus musculus with 8 samples.

Results

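The genes of the mitochondrial respiratory chain were followed in the 8 osteoclast libraries. They were the 110 protein-coding genes, of 46517 genes in the table, whose symbols begin with Ndufa, Ndufb, Ndufc, Ndufs, Ndufv, Sdha, Sdhb, Sdhc, Sdhd, Uqcr, Cox4, Cox5, Cox6, Cox7, Cox8, Atp5, mt-Nd, mt-Co, mt-Cytb or mt-Atp. Of these, 97 lie in the nuclear genome and 13 in mitochondrial DNA (mt- genes). The nuclear genes comprised 38 subunits of complex I, 8 complex I assembly factors (Ndufaf), 4 subunits of complex II, 4 complex II assembly factors (Sdhaf), 8 genes of complex III, 18 of complex IV and 17 of the ATP synthase, complex V. The prefix rule kept a few genes whose protein is not a plain subunit of the complex it is named for, such as *Ndufa4*, which is now counted as a complex IV protein.

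Osteoclasts, the multinucleated bone-resorbing cells of the macrophage lineage, had been grown from the femoral marrow of 4 *Elmo1*-/- and 4 *Elmo1*+/- mice aged 6 to 8 weeks. The control mice therefore also lacked 1 copy of *Elmo1*, which encodes an adaptor of Rac activation, and their libraries carry WT in their titles. All 8 cultures received 10% L929-conditioned medium as a source of M-CSF and 50 ng/ml GST-RANKL, with 7 days of culture before RNA was taken. The study sequenced 2 mice per condition per experiment, and the labels do not state which library number belongs to which experiment.

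Complex I and complex II pass electrons from NADH and succinate to ubiquinone, complex III passes them on to cytochrome c, and complex IV hands them to oxygen. The proton gradient built on the way drives ATP synthesis by complex V. Mitochondrial DNA encodes the membrane core of complexes I, III, IV and V but no subunit of complex II, and its genes are cut out of long polycistronic transcripts. Osteoclasts are rich in mitochondria, and their formation is known to be accompanied by mitochondrial biogenesis.

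Gene read totals ranged from 20905502 to 40846651 per library, and *Elmo1* itself held 1423 to 1769 normalised reads in *Elmo1*+/- against 274 to 316 in *Elmo1*-/- libraries (log2 difference -2.44 ± 0.09 SE, limma, Benjamini-Hochberg adjusted p = 8.4e-06). The first principal component, 62.3% of the variance, placed the libraries numbered 1 and 2 of both genotypes apart from those numbered 3 and 4, with *Elmo1*-/- library 1 at the far end at -52.3 and *Elmo1*-/- library 2 nearest the middle at -6.03. It held 62.4% when the respiratory chain genes were left out. Because this split was first seen in the same values, differences between the library sets are given below as description, without p-values. All 15 osteoclast markers examined, from *Acp5* and *Ctsk* to *Ostm1*, were higher in libraries 3 and 4 with no overlap of the sets for any of them, and their summed level was 489989 to 740700 in libraries 1 and 2 and 1086980 to 1235000 in libraries 3 and 4. Over all genes tested 18.1% lay higher in libraries 3 and 4 without overlap, and the limma fit called 17.0% higher and 15.6% lower. Of 10 macrophage markers, 4 were lower in libraries 3 and 4 by this fit, and the summed level was 253322 to 298395 against 206795 to 259878. Neutrophil markers summed to 13181 to 22733 against 10408 to 13982 with 1 of 10 called lower, stromal markers to 1122 to 1505 against 658 to 1445 with 1 of 3 called lower, and erythroid markers to at most 10.4 with *Hbb-bs* and *Hba-a2* at 0. Of B and T cell markers 1 each could be tested, called lower and higher, with sums of at most 416 and 70.4. In bulk RNA, fewer cells of a type and less RNA per cell cannot be told apart, and the part of these markers in the results below was not tested.

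Copies of mitochondrial genes in the nuclear genome bore on what the counts of the mt- genes could show, so their sequences come first. In the mouse reference (GRCm38, GENCODE annotation release M21), a stretch of chromosome 1 on the minus strand holds 7 annotated unprocessed pseudogenes, each a copy of all or part of one mt- gene. Aligned base by base without gaps, *mt-Co3* (chrM:8607-9390) and *Gm28437* (chr1:24613189-24613971) were identical at 783 of 783 positions, *mt-Co2* (chrM:7013-7696) and *Gm28661* (chr1:24614885-24615565) at 681 of 681, *mt-Atp6* (chrM:7927-8607) and *Gm10925* (chr1:24613974-24614651) at 678 of 678, and *mt-Nd4l* and *Gm10222* at 294 of 294. The copy of *mt-Nd3*, *Gm28438*, differed at 1 of 345 positions. The first 75 bases, one read length, of 3 of these genes show what the mitochondrial and the chromosome 1 locus have in common, with the start codon in capitals. They lie on the plus strand at chrM:8607-8681, chrM:7013-7087 and chrM:7927-8001, and on the minus strand at chr1:24613897-24613971, chr1:24615491-24615565 and chr1:24614577-24614651, in the order shown. A fragment with this sequence could have come from either locus.
mt-Co3 and Gm28437: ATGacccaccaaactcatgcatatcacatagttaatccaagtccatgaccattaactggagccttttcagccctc
mt-Co2 and Gm28661: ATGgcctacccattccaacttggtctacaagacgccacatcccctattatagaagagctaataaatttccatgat
mt-Atp6 and Gm10925: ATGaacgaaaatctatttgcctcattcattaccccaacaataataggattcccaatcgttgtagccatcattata

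*mt-Nd4* (chrM:10167-11544) is shared only in part, since *Gm28439* (chr1:24611535-24612410) matched its first 876 bases and ended there. The 75 bases across the end of the copy (chrM:11003-11077) are shown with the shared side in capitals, and no 75-base window that reached into the lower-case side or beyond occurred in another annotated transcript.
mt-Nd4 across the end of Gm28439: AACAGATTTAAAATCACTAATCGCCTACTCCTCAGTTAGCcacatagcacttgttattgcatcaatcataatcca

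Counts on the mt- genes fell into 2 ranges that ran parallel to this sharing. The 7 genes *mt-Co1*, *mt-Nd1*, *mt-Cytb*, *mt-Nd5*, *mt-Nd2*, *mt-Nd4* and *mt-Nd6* each held at least 4772 normalised reads in every library, and between 0% and 61.5% of their 75-base windows occurred in another annotated transcript. The other 6, *mt-Co3*, *mt-Co2*, *mt-Atp6*, *mt-Nd3*, *mt-Atp8* and *mt-Nd4l*, held at most 113 in any library. Of these 6, all but *mt-Atp8* shared 97.8% to 99.9% of their windows.

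*mt-Co1*, the catalytic subunit of complex IV, had 136495, 148163, 138904 and 94773 normalised reads in *Elmo1*+/- libraries 1 to 4 and 84227, 76855, 112515 and 123025 in *Elmo1*-/- libraries 1 to 4. *mt-Co2*, which encodes its partner subunit with the first copper centre, had 69.9, 91.0, 53.3 and 36.2 against 62.4, 44.3, 47.6 and 47.5. *mt-Co3*, the remaining mitochondrial subunit of the same complex, had 112, 113, 47.2 and 38.1 against 66.2, 32.3, 45.9 and 42.8. In all 3 genes the genotypes overlapped, with *Elmo1*-/- library 2 below *Elmo1*+/- libraries 1, 2 and 3. Complex IV contains one copy of each of these proteins, yet per kb of exon the mean level was 74026 for *mt-Co1*, 82.6 for *mt-Co2* and 79.3 for *mt-Co3*.

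The chromosome 1 copies carried the larger counts for the genes shared over nearly their whole length. *Gm28437* held 2684 to 8113 normalised reads, which was 65.1 to 86.5 times the count of *mt-Co3* in the same library. *Gm28661* exceeded *mt-Co2* by 49.4 to 66.3 times and *Gm10925* exceeded *mt-Atp6* by 66.3 to 99.9 times. Where the copy holds only part of the gene the order was the opposite. *Gm29216* held 2969 to 7247 against 76855 to 148163 for *mt-Co1*, which shares 27.5% of its windows with it. *Gm28439* held 226 to 766, which was 0.0261 to 0.0611 times the count of *mt-Nd4*, although 61.5% of the windows of *mt-Nd4* are in it.

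**Figure D1:**
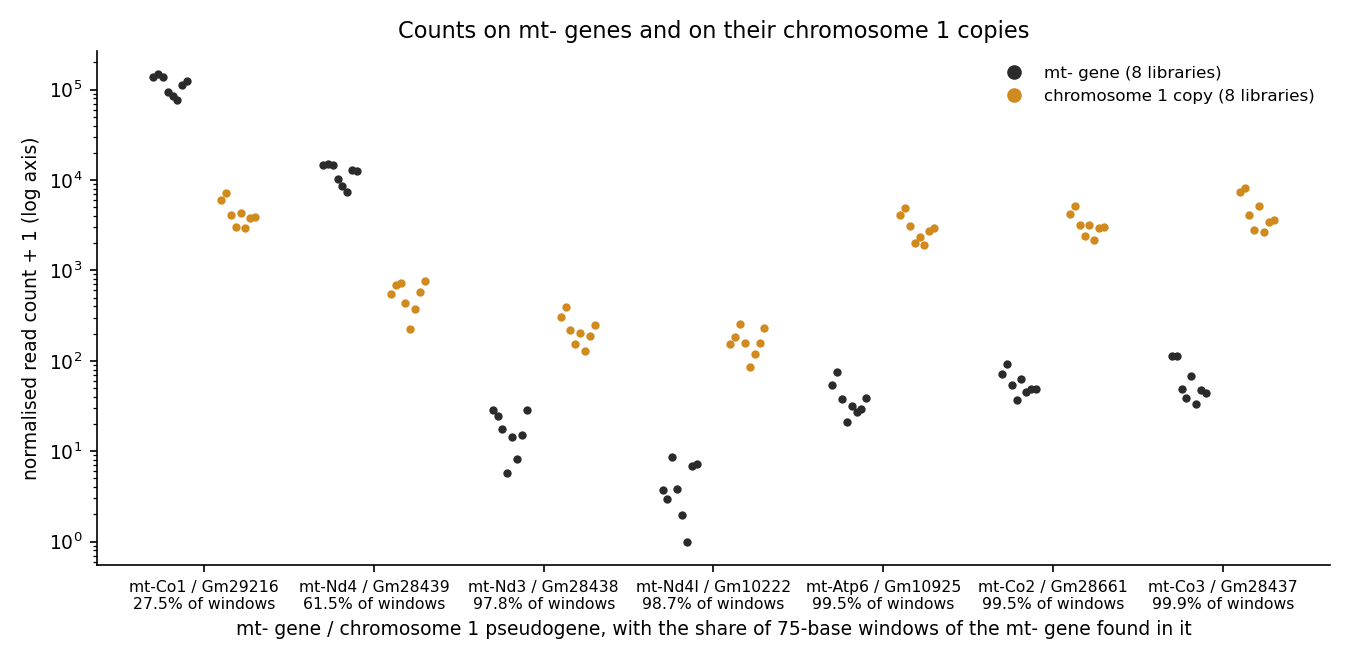
Normalised read count plus 1 (log axis) of 7 mt- genes (black) and of the chromosome 1 pseudogene that copies each (orange), 1 point per library, ordered by the share of the 75-base windows of the mt- gene found in the copy. At 27.5% and 61.5% sharing the mt- gene lies above its copy, and from 97.8% upwards the copy lies above the mt- gene in all 8 libraries.

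*mt-Atp8*, a small membrane subunit of complex V, had only 0.946 to 9.89 normalised reads although none of its windows occurred in another annotated transcript. Its locus, chrM:7766-7969, overlaps that of *mt-Atp6*. How the authors' counting treated reads that map to several places or overlap several genes was not given in the sources used here, so the levels of these 6 genes cannot be read as the abundance of their RNA. *mt-Nd6* (chrM:13552-14070) is the one mt- gene on the opposite strand and overlaps the end of *mt-Nd5*, and whether counting used strand is likewise not given.

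**Figure D2:**
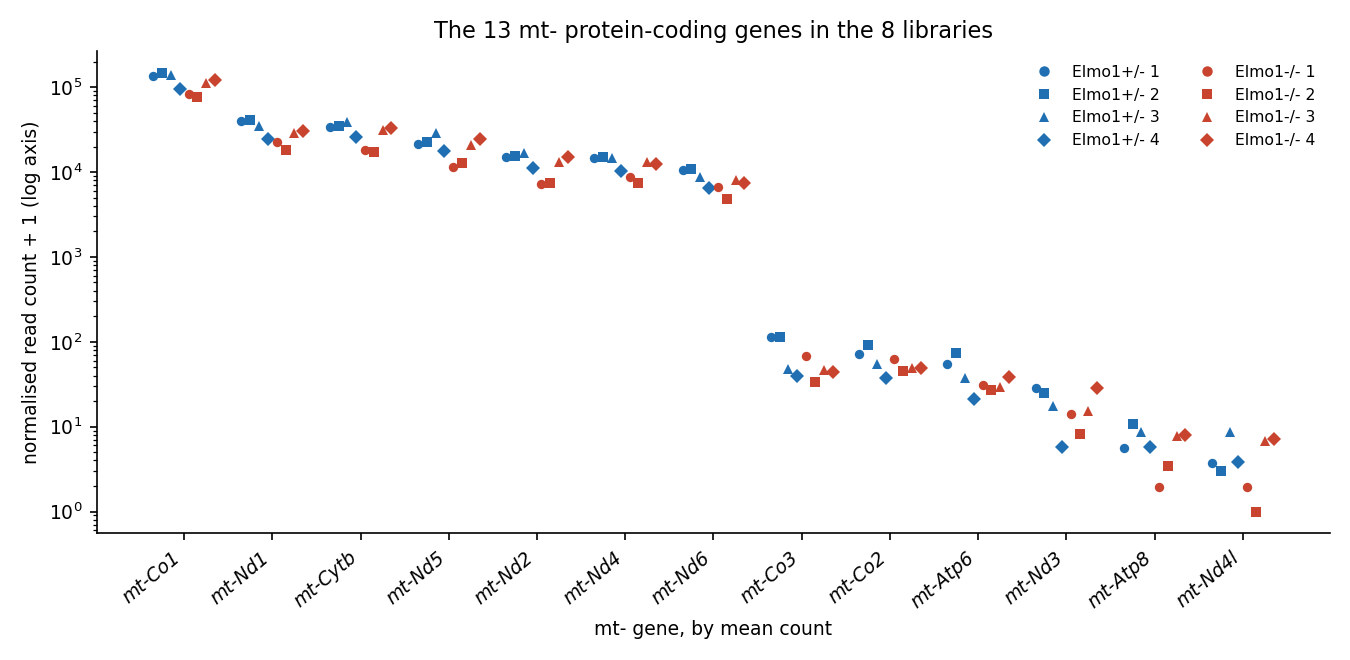
Normalised read count plus 1 (log axis) of the 13 mt- genes in each library, blue for *Elmo1*+/- and red for *Elmo1*-/-, with the symbol giving the library number. The 7 genes on the left lie at or above 4772 and the 6 on the right at or below 113, and the *Elmo1*-/- libraries 1 and 2 are the lowest points of the first 7 apart from *mt-Nd6*, where *Elmo1*+/- library 4 lies below *Elmo1*-/- library 1.

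Among the 97 nuclear genes sharing was less common: 54 had no window in another gene and 18 had 10% or more. The highest shares were 68.7% for the complex II assembly factor *Sdhaf1*, 63.2% for the complex I assembly factor *Ndufaf2* and 35.8% for *Atp5g2*, one of the genes for the c ring of complex V. *Atp5g2* also had the lowest level of complex V, 22.8 to 37.6 normalised reads, and the values of these 3 genes are uncertain for this reason. Smaller shares do not make other values certain, since the share was taken over all transcripts of a gene. Processed pseudogenes held 3998 to 4909 normalised reads for *Atp5l* (*Gm10221*), 3604 to 4069 for *Atp5h* (*Gm10250*) and 712 to 901 for *Ndufs3* (*Gm12251*). Others held few, as *Atp5l-ps1* with at most 5.84. The partner of *Sdhaf1*, *E130208F15Rik*, is annotated as a protein-coding gene, not a pseudogene, and held 0.

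Levels per kb of exon differed widely between the genes of one complex. In complex V, *Atp5a1*, the alpha subunit of the catalytic head, led with a mean of 12208 reads per kb and *Atp5g2* came last with 17.6. In complex IV, *Cox6b1* led with 13043, followed by *Cox4i1* with 11094 and *Cox8a* with 10707. *Uqcr10* led complex III with 8157 and *Uqcrq* was lowest with 1889, so the range within complex III was narrower.

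In complex II, the membrane anchor *Sdhd* led with 6726 reads per kb and the other anchor, *Sdhc*, was lowest with 2048. Among the core subunits of complex I *Ndufs3* was lowest with 562, while its pseudogene *Gm12251* held 712 to 901 normalised reads. The accessory subunits ran from 5420 for *Ndufa2* to 0.490 for *Ndufa4l2*, and the assembly factors ran from 123 for *Ndufaf2* to 398 for *Ndufaf1* and from 30.5 for *Sdhaf3* to 570 for *Sdhaf4*.

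Several complex IV subunits exist as a broadly expressed and a tissue-restricted form, and these cultures used the broad form almost throughout. *Cox7b2*, *Cox8b* and *Cox8c*, known from testis or striated muscle, had 0 reads in all 8 libraries, and a count of 0 allows up to 3 reads per library by counting error alone. *Cox4i2*, the lung form linked to low oxygen, had 1 to 7 reads per library, *Cox6b2* had 1 to 11 and *Ndufa4l2* had 0 to 4. Together with *mt-Atp8* and *mt-Nd4l* these 6 nuclear genes were the 8 that did not reach 10 normalised reads in at least 4 libraries, leaving 102 genes for the fits, 91 nuclear and 11 mt-.

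The striated muscle forms *Cox7a1* and *Cox6a2* were measurable. *Cox7a1* made up 3.10% to 3.89% of the *Cox7a1* plus *Cox7a2* level per kb in libraries 1 and 2 and 4.16% to 5.41% in libraries 3 and 4. *Cox6a2* made up 1.10% to 1.32% of *Cox6a1* plus *Cox6a2* in libraries 1 and 2 and 0.738% to 0.966% in libraries 3 and 4. The sets did not overlap for either pair, and the restricted form was higher in libraries 3 and 4 in one and lower in the other.

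The comparison of genotypes asked whether loss of *Elmo1* altered the chain at the RNA level. No respiratory chain gene passed the threshold (0 of 102, against 0.00707% of all 14139 genes tested, which is *Elmo1* alone; limma, adjusted p under 0.05). At an unadjusted p under 0.05 there were 2, *mt-Nd1* and *Ndufs5*, against 0.941% of all genes. This fit had no term for the library set, so the spread between sets entered its standard errors. With the set as a term, 411 of all 14139 genes had an unadjusted limma p under 0.05, beside 133 without it. No respiratory chain gene was called with that term either. With edgeR on the recovered reads 0 were called as well, against 0.00704% of all genes. None of the 102 had genotypes that did not overlap, a pattern shown by 0.941% of all genes.

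The nuclear genes were close to equal between genotypes, with a median log2 difference (*Elmo1*-/- minus *Elmo1*+/-) of -0.04 over 91 genes beside -0.0031 over all genes. Of the 91, 67 lay below 0, beside 7301 of all 14139 genes tested. Within libraries 1 and 2, 68 of the 91 did so, beside 7508 of all genes. Within libraries 3 and 4, 54 did so, beside 6744 of all genes. The largest decrease among them was that of *Ndufaf6*, a complex I assembly factor, at -0.25 ± 0.11 SE (adjusted p = 1.00). *Ndufs5*, an accessory subunit of complex I, shares 15.7% of its windows with the processed pseudogene *BC002163*, which held 1159 to 1442 normalised reads. *Ndufs5* had 733, 713, 809 and 755 normalised reads in *Elmo1*+/- and 643, 536, 720 and 677 in *Elmo1*-/- libraries. The ranges overlapped by one library, and the difference was -0.23 ± 0.10 SE (adjusted p = 1.00).

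The highest positive differences were of the size of their errors. *Ndufaf1* led at 0.10 ± 0.12 SE, *Ndufa12* stood at 0.09 ± 0.07, *Sdhaf4* at 0.07 ± 0.12 and *Atp5h* at 0.06 ± 0.07. In complexes II, III and IV every value was below 0, the highest being -0.05 for *Sdhd*, -0.03 ± 0.12 for *Uqcr11* and -0.03 ± 0.08 for *Cox7a2l*. The lower ends were -0.19 ± 0.20 for *Cox6a2*, -0.16 ± 0.15 for *Atp5s*, -0.20 ± 0.17 for *Sdhaf3* and -0.11 ± 0.13 for *Uqcr10*, none past the threshold.

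All 11 mt- genes tested were lower on average in *Elmo1*-/-, from -0.13 for *mt-Nd3* to -0.60 for *mt-Co3*, with a median of -0.43. *mt-Nd1*, a proton-pumping core subunit of complex I, had 40351, 41412, 35345 and 24503 normalised reads in *Elmo1*+/- and 22608, 18379, 28791 and 30272 in *Elmo1*-/- libraries. *Elmo1*-/- libraries 1 and 2 were low, *Elmo1*+/- library 4 lay between them and the rest, and the genotypes overlapped. The difference was -0.50 ± 0.21 SE (adjusted p = 1.00). *mt-Nd1* and *mt-Nd6* are also on a gene list the study drew from these same libraries, so their direction here is no independent evidence.

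By library set, the mt- values were further apart in libraries 1 and 2. Within that set both *Elmo1*-/- values lay below both *Elmo1*+/- values for 11 of 11 mt- genes, against 14.2% of all genes, and for 26 of 91 nuclear genes. Within libraries 3 and 4 this held for 0 of 11 mt- genes, against 14.5% of all genes, and for 12 of 91 nuclear ones. By the fit, no respiratory chain gene was called within either set, beside 0.00707% of all genes. At an unadjusted p under 0.05 there were 11 in libraries 1 and 2, 9 of them mt-, against 4.76% of all genes, and 0 in libraries 3 and 4, against 1.04%.

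Osteoclast markers are given here beside these values. Within libraries 1 and 2 all 15 had a difference below 0 (none called between genotypes), with a median log2 difference of -0.31. *Acp5* stood at -0.63 and *Ctsk* at -0.64. Within libraries 3 and 4 all 15 lay above 0, with a median of 0.17. Of 10 macrophage markers 4 lay below 0 and 6 above within libraries 1 and 2, with a median of 0.07 and a highest value of 1.16 for *Cx3cr1*. *Elmo1*-/- library 1 is also the one at the far end of the first principal component, while *Elmo1*-/- library 2, nearest the middle, had mt- values about as low. For most of the 15 osteoclast markers *Elmo1*-/- library 2 lay below both *Elmo1*+/- libraries 1 and 2. An example is *Ctsk*, with 103706 normalised reads against 154959 and 113012. For fewer markers it lay above both, as for *Nfatc1*, with 4301 against 3717 and 3932. Within *Elmo1*+/- all 15 osteoclast markers were higher in libraries 3 and 4. The 7 mt- genes with the most reads had a median set difference of -0.27 there, with 6 of 7 below 0. Within *Elmo1*-/- all 15 markers were likewise higher in libraries 3 and 4. The same 7 mt- genes had a median set difference of 0.68 there, with 7 of 7 above 0. The part of the marker differences in the mt- values was not tested.

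*mt-Nd2*, another core subunit of complex I, had 15113 and 15386 normalised reads in *Elmo1*+/- libraries 1 and 2 and 7194 and 7332 in *Elmo1*-/- libraries 1 and 2. In libraries 3 and 4 it had 16888 and 11035 against 13215 and 15017. The *Elmo1*-/- mean was thus 0.476 times the *Elmo1*+/- mean in libraries 1 and 2 and 1.01 times in libraries 3 and 4, where the *Elmo1*-/- values fell between those of the *Elmo1*+/- libraries. *mt-Cytb*, the core of complex III, showed the same arrangement, with 34398 and 34457 against 18039 and 17057 in libraries 1 and 2, and 38442 and 26149 against 31217 and 32755 in libraries 3 and 4.

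Across the 7 mt- genes with the most reads the *Elmo1*-/- mean in libraries 1 and 2 was between 0.476 times (*mt-Nd2*) and 0.566 times (*mt-Co1*) the *Elmo1*+/- mean. In libraries 3 and 4 the same ratio was between 0.970 times (*mt-Nd5*) and 1.02 times (*mt-Nd6*, *mt-Nd4*). The median log2 difference of the 11 mt- genes was -0.97 within libraries 1 and 2 and 0.05 within 3 and 4, and that of the 91 nuclear genes -0.07 and -0.0099.

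Whether the genotype difference itself differed between the sets was tested as an interaction, and no gene passed (0 of 102 respiratory chain genes and 0 of 14139 in all, limma; 0 of the 102 with edgeR). Before adjustment 10 of the 11 mt- genes and 1 of the 91 nuclear genes, *Cox7c*, had p under 0.05, against 2.67% of all genes. *Cox7c* shares 19.6% of its windows with other genes, among them the processed pseudogene *Gm12338*, which held 2342 to 2911 normalised reads. The mt- genes lie on one molecule and share their transcripts, so they are not independent observations of this pattern.

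**Figure D3:**
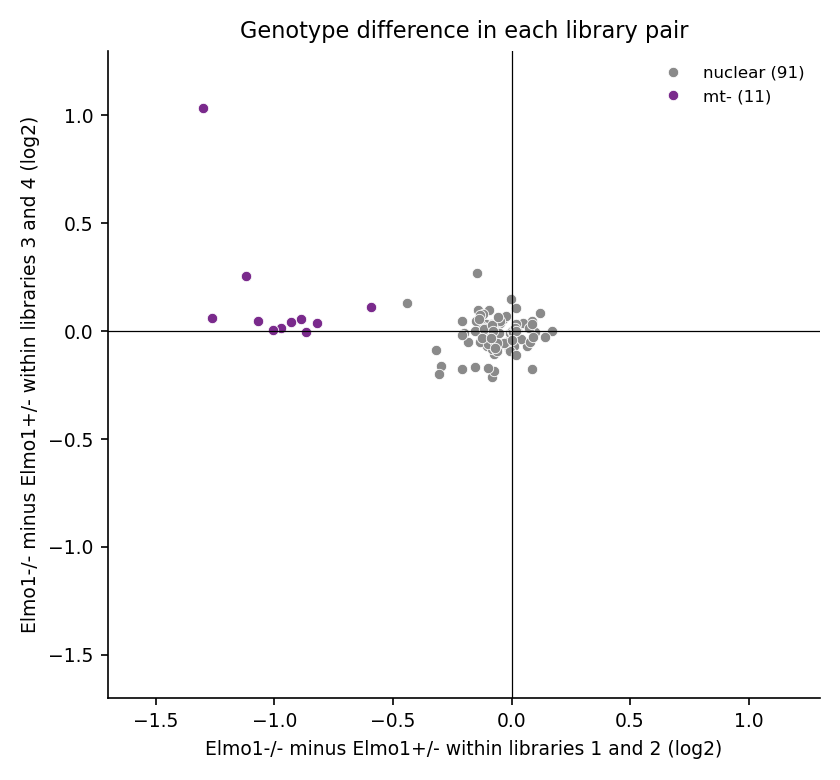
Log2 difference between *Elmo1*-/- and *Elmo1*+/- libraries within libraries 1 and 2 (horizontal) and within libraries 3 and 4 (vertical), 1 point per gene, grey for 91 nuclear and purple for 11 mt- genes. The mt- points lie to the left of the nuclear ones, with a median of -0.97 across and 0.05 upwards, and the point at 1.03 upwards is *mt-Nd3*, which had 5 to 35 reads.

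The chromosome 1 copies moved with the mt- genes. Within libraries 1 and 2 the log2 difference was -1.05 for *Gm28437*, -0.82 for *Gm28661* and -1.08 for *Gm10925*, and within libraries 3 and 4 it was 0.08, 0.10 and 0.18. The RNA components of the mitochondrial ribosome, *mt-Rnr1* and *mt-Rnr2*, were not in the gene set. The study prepared mRNA libraries (Illumina TruSeq), and the effect of that preparation on the counts of these 2 RNAs was not tested. Their log2 differences were -0.87 and -1.07 within libraries 1 and 2, and -0.067 and -0.070 within libraries 3 and 4. *mt-Rnr2* had 10424.5 and 13086 normalised reads in *Elmo1*+/- libraries 1 and 2 and 9306 and 3309 in *Elmo1*-/- libraries 1 and 2. By single library the order of *mt-Rnr1* differed from that of *mt-Nd2*. *mt-Rnr1* had 7829, 9910, 4093 and 2679 normalised reads in *Elmo1*+/- and 9506, 2429, 3148 and 3176 in *Elmo1*-/- libraries, so that *Elmo1*-/- library 1 was among the highest for *mt-Rnr1* while it was among the lowest for *mt-Nd2*.

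As a share of all gene reads the 13 mt- genes made up 0.829%, 0.901%, 0.887% and 0.616% in *Elmo1*+/- libraries and 0.475%, 0.472%, 0.727% and 0.774% in *Elmo1*-/- libraries. The mean was 0.808% ± 0.132 (SD, n = 4) against 0.612% ± 0.161 (SD, n = 4), and the groups overlapped. The share leaves out whatever part of the mitochondrial RNA was credited to the chromosome 1 copies. Nuclear genes made up 1.20%, 1.20%, 1.39% and 1.45% against 1.12%, 1.20%, 1.46% and 1.34%.

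The 2 shares therefore sorted the libraries differently. The nuclear share was 1.12% to 1.20% in libraries 1 and 2 and 1.34% to 1.46% in libraries 3 and 4, without overlap. The mt- share was 0.472% to 0.901% in libraries 1 and 2 and 0.616% to 0.887% in libraries 3 and 4. Reads on mt- genes per read on nuclear genes ran from 0.392 in *Elmo1*-/- library 2 to 0.748 in *Elmo1*+/- library 2.

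**Figure D4:**
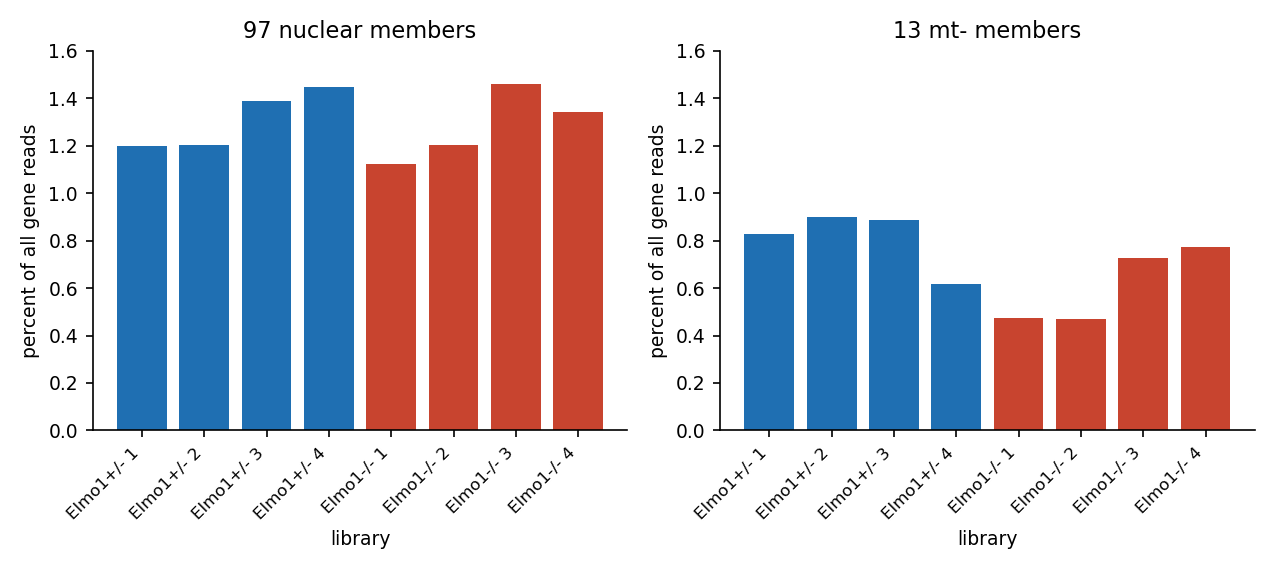
Percent of all gene reads on the 97 nuclear (left) and 13 mt- (right) respiratory chain genes, 1 bar per library, blue for *Elmo1*+/- and red for *Elmo1*-/-. On the left the bars of libraries 3 and 4 are the taller in both genotypes, from 1.34% to 1.46%, and on the right the *Elmo1*-/- libraries 1 and 2 are the lowest at 0.475% and 0.472%.

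Between library sets, 33 of 102 respiratory chain genes passed the same threshold, a share like that of all genes (32.6%). Leaving out 1 library moved this count to between 19, without *Elmo1*-/- library 3, and 42, without *Elmo1*-/- library 2. Higher in libraries 3 and 4 were 32, which is 31.4% of the 102 against 17.0% of all genes, and lower was 1, against 15.6% of all genes. The sets did not overlap for 34 genes in that direction, against 18.1% of all genes, and for 1, *Cox6a2*, in the other, against 15.8%. All of these were nuclear, and none of the 11 mt- genes was among them. The median log2 difference (libraries 3 and 4 minus 1 and 2) was 0.11 for the nuclear genes and -0.0072 for all genes. It was 0.20 for the 7 mt- genes with the most reads and -0.49 for the other 4 mt- genes tested (0.03 over the 11 mt- genes together).

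Complex II, the succinate dehydrogenase that also belongs to the citric acid cycle, was higher in libraries 3 and 4 in all 4 of its subunits. Over all genes 17.0% were called in that direction. *Sdha*, the flavoprotein that oxidises succinate, had 13390 and 13275 normalised reads in *Elmo1*+/- libraries 1 and 2, 18808 and 18615 in *Elmo1*+/- libraries 3 and 4, 11016 and 13084 in *Elmo1*-/- libraries 1 and 2 and 19262 and 19380 in *Elmo1*-/- libraries 3 and 4. Its lowest value in the second set exceeded its highest in the first, and the log2 difference was 0.59 ± 0.07 SE. The iron-sulphur subunit *Sdhb* differed by 0.33 ± 0.05, and the membrane anchors *Sdhc* and *Sdhd* by 0.30 ± 0.06 and 0.22 ± 0.06. Of the 4 assembly factors *Sdhaf4* passed, at 0.25 ± 0.09, a call lost with no filter and with 6 of the 8 libraries left out in turn, while *Sdhaf3* stood at 0.33 ± 0.12 and *Sdhaf1* at 0.06 ± 0.10.

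Complex III was higher in 6 of 8 genes (75.0%, against 17.0% of all genes). *Uqcrc2*, a core protein of the matrix side, had the largest difference of the nuclear genes, 0.65 ± 0.08 SE. It had 6371 and 6414 normalised reads in *Elmo1*+/- libraries 1 and 2, 9978 and 9565 in libraries 3 and 4, 5069 and 6699 in *Elmo1*-/- libraries 1 and 2 and 9535 and 9337 in libraries 3 and 4. *Uqcrfs1*, the Rieske iron-sulphur protein, followed at 0.40 ± 0.06, and *Uqcr10* and *Uqcr11*, small subunits, at 0.28 ± 0.08 and 0.26 ± 0.07. *Uqcrb* and *Uqcrq* did not pass, with *Uqcrq* at 0.05 ± 0.08. *Uqcrc2* shares 16.5% of its windows with other genes.

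Complex I was split. Of its 7 nuclear core subunits 4 were higher (57.1%, against 17.0% of all genes), led by *Ndufs1* at 0.53 ± 0.09 SE. *Ndufs8* stood at -0.18 ± 0.08 and did not pass. *Ndufs1*, the iron-sulphur subunit of the NADH module, had 4030, 4292, 5658 and 5719 normalised reads in *Elmo1*+/- and 3288, 4426, 5820 and 5741 in *Elmo1*-/- libraries, so that the sets were apart in both genotypes. *Ndufs8*, another iron-sulphur core subunit, had 2023, 2001, 1645 and 1849 against 2079, 1694, 1815 and 1558, and the sets overlapped. Of 30 accessory subunits 7 were higher (23.3%, against 17.0% of all genes). *Ndufa4*, counted here by its symbol although now held to be a complex IV protein, led at 0.42 ± 0.06, with *Ndufa10* at 0.34 ± 0.05. *Ndufa2* was lowest at -0.19 ± 0.08 and did not pass. Of the 8 assembly factors 3 were higher (37.5%), *Ndufaf5* at 0.36 ± 0.07, *Ndufaf1* at 0.29 ± 0.07 and *Ndufaf4* at 0.27 ± 0.08. The lowest, *Ndufaf2*, stood at -0.19 ± 0.09.

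In complex IV 2 of 13 tested genes were higher (15.4%, against 17.0% of all genes) and 1 was lower (15.6% of all genes were). The muscle forms were at both ends. *Ndufa4*, grouped with complex I by its symbol, was not among the 13. *Cox7a1* differed by 0.52 ± 0.12 SE, with 130, 144, 224 and 186 normalised reads in *Elmo1*+/- and 115, 146, 174 and 184 in *Elmo1*-/- libraries. *Cox6a2* differed by -0.42 ± 0.14, with 86.4, 70.2, 53.3 and 61.9 against 70.0, 64.7, 55.1 and 46.7, which are the fewest reads of any gene that passed. This call was lost with edgeR, TMM factors, equal totals, no filter and every library left out but *Elmo1*-/- library 2. The broad forms *Cox4i1*, *Cox6a1*, *Cox6b1*, *Cox7a2*, *Cox7b* and *Cox8a* lay between 0.05 and 0.15 and none passed.

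Complex V was higher in 5 of 17 genes (29.4%, against 17.0% of all genes). These were the alpha, beta and gamma subunits of the catalytic head (*Atp5a1* at 0.36 ± 0.07 SE, *Atp5b* at 0.36 ± 0.06 and *Atp5c1* at 0.18 ± 0.05), the stalk subunit *Atp5f1* at 0.17 ± 0.05 and *Atp5g3*, one of the c ring genes, at 0.26 ± 0.06. *Atp5b* had 45845, 44004, 55827 and 57389 normalised reads in *Elmo1*+/- and 41167, 45521, 56371 and 56060 in *Elmo1*-/- libraries. The delta and epsilon subunits of the same head did not pass, *Atp5d* at 0.03 ± 0.07 and *Atp5e* at -0.12 ± 0.06.

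**Figure D5:**
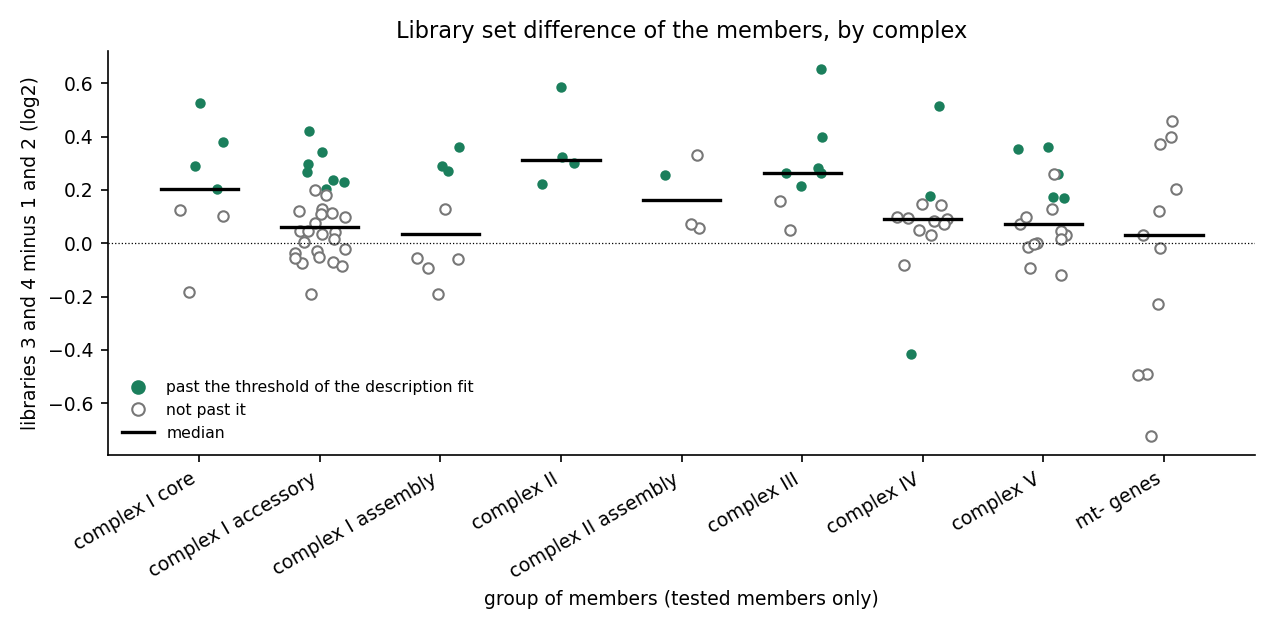
Log2 difference between libraries 3 and 4 and libraries 1 and 2 of the 102 tested respiratory chain genes, grouped by complex, filled where the gene passed the threshold of the descriptive fit and open where it did not, with a bar at each group's median. All 4 points of complex II and 6 of 8 of complex III are filled and above 0, and the mt- genes spread from -0.72 to 0.46 with none filled.

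Between the sets the mt- genes differed by class. The 7 with the most reads had a median of 0.20, with 6 of 7 above 0. The other 4 tested, which share their sequence with the chromosome 1 copies, had a median of -0.49, with 4 of 4 below 0. Within *Elmo1*+/- libraries the medians of these classes were -0.27 and -1.28 and within *Elmo1*-/- libraries 0.68 and 0.07, whereas the nuclear genes had 0.08 and 0.13. The same threshold was passed within *Elmo1*+/- by 5 respiratory chain genes, 1 of them mt- (*mt-Co3*, lower in libraries 3 and 4), against 6.23% of all genes. Within *Elmo1*-/- it was passed by 18, of which 4 were mt- (*mt-Cytb*, *mt-Nd2*, *mt-Nd4* and *mt-Nd5*, all higher), against 8.64%. Across the 91 nuclear genes the set difference had a Spearman correlation of 0.173 with exon length and 0.295 with mean count, beside 0.175 and -0.0047 over the 14096 genes with a length, given as a description since genes of one library are not independent.

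The genes that feed, build and regulate the chain were examined as lists chosen with earlier results of these data known, and no gene of any list was called between genotypes. The citric acid cycle and pyruvate dehydrogenase list was the most uniform between sets, with 16 of 16 genes higher in libraries 3 and 4 and a median difference of 0.48, beside 17.0% of all genes called in that direction. *Pdha1*, a pyruvate dehydrogenase subunit, led at 0.69 ± 0.11 SE and *Ogdh*, of the oxoglutarate dehydrogenase, was lowest at 0.19 ± 0.06. *Cs*, citrate synthase, had 14210, 13922, 19917 and 20063 normalised reads in *Elmo1*+/- and 11361, 14501, 20144 and 19933 in *Elmo1*-/- libraries.

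For the lists that follow, 17.0% of all genes were called higher and 15.6% lower. Of 20 tested electron carriers and feeders 7 were higher and 0 lower, with the coenzyme Q kinase-like gene *Coq8a* at 0.77 ± 0.13 SE. Of 33 assembly factors outside the prefix rule 13 were higher and 0 lower, with *Lyrm7*, a complex III assembly factor, highest at 0.75 ± 0.26 but not past the threshold. Of 7 genes of ATP export 5 were higher, led by the mitochondrial creatine kinase *Ckmt1* at 1.31 ± 0.21, and of the uncoupling genes *Ucp2* was the one tested and stood at 0.25 ± 0.06. Between genotypes the extremes of these lists were 0.22 for *Coq4* and -0.20 for *Lyrm7*.

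Of 28 genes that express mitochondrial DNA 6 were higher and 3 lower, shares near the 17.0% and 15.6% of all genes, from *Trmt10c*, a subunit of mitochondrial RNase P, at 0.64 ± 0.10 SE to *Slirp*, a partner of mitochondrial mRNA, at -0.35 ± 0.09. Of 77 proteins of the mitochondrial ribosome 11 were higher and 3 lower, both smaller shares than the 17.0% and 15.6% of all genes, with a median of 0.03, from *Mrps35* at 0.51 ± 0.09 to *Mrps11* at -0.33 ± 0.10.

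Among 15 tested regulators of mitochondrial biogenesis 3 were higher and 1 lower, against 17.0% and 15.6% of all genes. *Ppargc1b*, the PGC-1 beta coactivator known to act in osteoclasts, had 340, 362, 560 and 449 normalised reads in *Elmo1*+/- and 270, 396, 530 and 593 in *Elmo1*-/- libraries and differed by 0.65 ± 0.13 SE, the sets being apart. *Ppargc1a* had at most 2.97 in any library. *Perm1*, a muscle-associated regulator of the same programme, differed by 1.10 ± 0.11. *Nrf1*, the nuclear respiratory factor, was lower in libraries 3 and 4 at -0.18 ± 0.06, and *Gabpa* stood at 0.22 ± 0.11 with overlapping sets.

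Promoter sequences were taken from RefSeq (GRCm38.p6, 250 bases before to 50 after each start) and found for 78 of the 97 nuclear genes. The 10-base palindrome of nuclear respiratory factor 1 (NRF1), whose letters are the capitals in the *Uqcrc1* promoter printed here, was in the promoters of 7 of the 78 genes, 8.97%, against 1.07% of 27025 genes with a promoter in the table and 1.47% of the 17492 protein-coding ones. The ETS core CCGGAAG, bound by GABP among others, was in 21, 26.9%, against 9.93% and 12.9%. The YY1 motif AAGATGGCG was in 8, 10.3%, against 1.64% and 2.14%. The CCAAT box was in 34, 43.6%, against 41.1% and 42.3%, and the GGGCGG box in 37, 47.4%, against 38.2% and 49.2%. Both strands were searched, each motif was counted on its own even where motifs overlap, as the ETS core and the YY1 motif can at AAG, and a match is a run of letters, not a shown site of binding.

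The 7 genes with the palindrome were *Ndufa11*, *Ndufaf4*, *Ndufaf5*, *Uqcrc1*, *Cox6a1*, *Atp5g2* and *Atp5k*. Of the 34 genes whose sets did not overlap upwards 26 had a promoter, and 3 of these held the palindrome, 6 the ETS core and 1 the YY1 motif. Of the other 52 genes 4, 15 and 7 held them. The 3 promoters with the palindrome from the first group are shown with that of *Cox6a1*, whose sets overlapped, and with that of *Sdhb* for the ETS core, with each of the 3 motifs in capitals. They lie at chr9:108936398-108936697, plus strand (*Uqcrc1*), chr2:140170396-140170695, plus strand (*Ndufaf5*), chr4:24897833-24898132, plus strand (*Ndufaf4*), chr5:115348909-115349208, minus strand (*Cox6a1*) and chr4:140961021-140961320, plus strand (*Sdhb*).
Uqcrc1: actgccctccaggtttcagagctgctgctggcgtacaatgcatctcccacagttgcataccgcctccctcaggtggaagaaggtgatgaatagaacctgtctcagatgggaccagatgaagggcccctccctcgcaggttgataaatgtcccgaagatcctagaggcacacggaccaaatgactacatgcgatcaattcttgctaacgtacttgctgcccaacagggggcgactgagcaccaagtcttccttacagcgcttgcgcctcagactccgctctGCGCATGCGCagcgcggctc
Ndufaf5: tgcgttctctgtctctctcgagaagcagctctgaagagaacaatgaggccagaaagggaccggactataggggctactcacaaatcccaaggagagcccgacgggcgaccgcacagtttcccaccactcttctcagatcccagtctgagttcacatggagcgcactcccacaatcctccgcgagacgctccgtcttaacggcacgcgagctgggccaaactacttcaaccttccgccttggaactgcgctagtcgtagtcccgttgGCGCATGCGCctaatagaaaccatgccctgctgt
Ndufaf4: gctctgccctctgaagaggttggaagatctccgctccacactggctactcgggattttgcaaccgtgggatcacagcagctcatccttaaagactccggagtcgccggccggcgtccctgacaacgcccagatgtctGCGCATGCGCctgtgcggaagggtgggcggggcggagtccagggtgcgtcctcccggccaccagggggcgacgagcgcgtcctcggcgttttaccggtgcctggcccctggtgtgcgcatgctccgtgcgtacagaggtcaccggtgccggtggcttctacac
Cox6a1: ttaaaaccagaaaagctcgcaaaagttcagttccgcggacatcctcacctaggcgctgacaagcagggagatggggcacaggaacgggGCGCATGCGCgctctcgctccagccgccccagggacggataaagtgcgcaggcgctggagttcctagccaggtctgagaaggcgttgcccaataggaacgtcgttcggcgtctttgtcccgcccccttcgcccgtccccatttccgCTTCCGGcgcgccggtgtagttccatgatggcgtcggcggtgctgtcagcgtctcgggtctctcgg
Sdhb: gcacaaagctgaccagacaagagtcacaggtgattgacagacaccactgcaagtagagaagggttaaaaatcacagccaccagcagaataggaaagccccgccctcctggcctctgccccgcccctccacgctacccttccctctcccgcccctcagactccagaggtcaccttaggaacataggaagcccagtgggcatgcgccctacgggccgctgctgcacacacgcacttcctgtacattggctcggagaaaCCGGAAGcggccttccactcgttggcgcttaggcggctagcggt

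*Uqcrc1*, a core protein of complex III, had 8650, 8413, 9817 and 9859 normalised reads in *Elmo1*+/- and 7930, 7747, 10105 and 9453 in *Elmo1*-/- libraries, a set difference of 0.26 ± 0.06 SE. *Cox6a1*, with the same letters in its promoter, had 6659, 6083, 6945 and 6546 against 6521, 5301, 7112 and 6482, a difference of 0.15 ± 0.08 that did not pass.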

How the data were processed

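The authors deposited 1 table of signal values, gene read counts divided by 1 DESeq2 size factor per library, for 4 *Elmo1*+/- and 4 *Elmo1*-/- osteoclast cultures. The submitters' processing notes name FastQC, STAR, featureCounts and DESeq2. Their versions and the genome build were not given in the sources used here. This table also holds the authors' own mean, fold change, standard error, statistic and p-values, which were not used. Every value was a whole multiple of its column's step (100% within 0.01 of a whole read), so read counts were recovered by division.

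Identifiers were matched to GENCODE M21 (46005 of 46517). The 110 genes and all lists were chosen with earlier results of these data known. Of the genes matching the prefixes, 13 that are not protein-coding were left out. Genes with at least 10 normalised reads in at least 4 libraries (14139) were fitted as log2(value + 1) with limma 3.58.1 (trend and robust, R 4.3.3), on genotype over all 8 libraries, with Benjamini-Hochberg adjustment over all genes at 0.05, so fold changes of low genes are understated. Library sets, with genotype as a term, and their interaction were fitted in the same way. edgeR 4.0.16 (quasi-likelihood, on the recovered reads) called 1 gene between genotypes. The limma genotype fit was tested on simulated counts. Same-numbered libraries of the genotypes deviated together (correlations 0.703, 0.156, 0.598 and 0.520), which meets the rule for pairing, but other numbers of the same set did so too (0.691 for *Elmo1*+/- 2 with *Elmo1*-/- 1, 0.614 for 3 with 4), so number and set cannot be told apart, and the replicate number was added as a block in an alternative. Genes were named by a rule: all mt- genes, in each complex the highest and lowest level, genotype difference and set difference, isoform pairs, genes under the filter, and genes called or with separated genotypes. Other genes are named as listed members, and *Cs*, *Ppargc1a*, *Ppargc1b*, *Gabpa*, *Cox7c*, *Ndufa10*, *Ndufaf4*, *Uqcrc1*, *Uqcrfs1*, *Uqcrb*, *Atp5b*, *Atp5c1*, *Atp5f1*, *Atp5g3* and *Atp5d*, the promoter genes, *mt-Rnr1* and *mt-Rnr2* after their values were seen. A result that the rule would name is not reported here. Windows of 75 bases, the read length, were compared over all annotated transcripts. Counting error alone sets the limit of 3 reads given for genes at 0.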

Additional observations from a re-analysis of the deposited data

Results flagged for a closer look

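Within genotypes, 2 values stood far from the other 3 of their group among 102 groups of 4 examined, fewer than the about 5.1 that chance gives at 1 in 20. *Elmo1*+/- mouse 3 had 193 normalised reads of *Atp5s*, above the other 3. *Elmo1*+/- mouse 4 had 10275 of *mt-Nd4*, below the other 3, and it was also the lowest *Elmo1*+/- library for the other 6 of the mt- genes with the most reads. No cause was tested.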

How the results depend on the processing

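No respiratory chain gene was called between genotypes under any alternative: edgeR, equal totals with and without mt- genes, TMM factors, no filter, a minimum of 50, pseudocounts of 0.5 and 8, the library set as a term, each library left out, and the replicate block that pairs same-numbered libraries (0 called). The block changed no call, and the interaction count stayed at 0 with edgeR and a minimum of 50. The median genotype difference of mt- genes moved to -0.97 within libraries 1 and 2 and to 0.05 within libraries 3 and 4. Without single libraries it ran from -0.60 to -0.32, that of nuclear genes from -0.092 to 0.0054, the mt- share difference from -0.26 to -0.15 percentage points and the mt- to nuclear ratio difference from -0.22 to -0.11. A denominator without mt- genes gave -0.20 for the share and does not enter the ratio.

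Between library sets the count of 33 genes became 26 with no filter and 32 to 34 under the other settings, and ran from 19 (without *Elmo1*-/- library 3) to 42 (without *Elmo1*-/- library 2) with libraries left out. Over all genes the count fell from 4603 to between 2861 and 2900 without any one of *Elmo1*+/- libraries 1, 2 and 3 or *Elmo1*-/- libraries 3 and 4, and became 6897 without *Elmo1*-/- library 2. *Cox6a2* no longer passed with edgeR, TMM factors, equal totals, no filter or, except *Elmo1*-/- library 2, any library left out, and *Sdhaf4* with no filter or most libraries left out. The median set difference of mt- genes moved to -0.47 within *Elmo1*+/- and 0.55 within *Elmo1*-/-, and ran from -0.13 to 0.32 with libraries left out, the highest without *Elmo1*+/- library 4.

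Signs changed for single genes, none past the threshold in the comparison and setting named. Within libraries 3 and 4 the genotype difference became *Atp5a1* 0.030, *Atp5e* -0.0034, *Cox6a1* 0.010, *Ndufa4* 0.012, *Ndufaf5* -0.025, *Ndufs1* 0.023, *Sdha* 0.046, *Uqcr11* 0.076, *Uqcrq* 0.054, *mt-Atp6* 0.26, *mt-Co1* 0.036, *mt-Co2* 0.11, *mt-Co3* 0.063, *mt-Cytb* 0.012, *mt-Nd1* 0.0046, *mt-Nd2* 0.045, *mt-Nd3* 1.03, *mt-Nd4* 0.055 and *mt-Nd6* 0.041. Within libraries 1 and 2 it became *Atp5g2* -0.14, *Ndufaf2* 0.088, *Ndufs3* -0.023 and *Sdhaf4* -0.00092. The set difference became *Atp5g2* 0.11, *Atp5h* 0.028, *mt-Atp6* 0.20, *mt-Nd3* 0.94 and *mt-Nd6* 0.47 within *Elmo1*-/-. Within *Elmo1*+/- it became *Ndufa12* 0.016, *Uqcrq* -0.046, *mt-Co1* -0.31, *mt-Cytb* -0.12, *mt-Nd1* -0.47, *mt-Nd2* -0.16 and *mt-Nd4* -0.27. With equal totals it became *Atp5h* 0.022 and *mt-Nd6* 0.018, and without mt- genes in the totals 0.023 and 0.019. With libraries left out the genotype difference ranged across 0 for *Atp5a1* (-0.10 to 0.078), *Atp5e* (-0.053 to 0.049), *Atp5g2* (-0.039 to 0.19), *Cox4i1* (-0.099 to 0.0026), *Cox6a1* (-0.11 to 0.032), *Cox6b1* (-0.074 to 0.014), *Cox7a1* (-0.25 to 0.0093), *Cox7a2l* (-0.086 to 0.010), *Cox8a* (-0.12 to 0.012), *Ndufa2* (-0.14 to 0.00052), *Ndufa4* (-0.17 to 0.044), *Ndufaf2* (-0.11 to 0.012), *Ndufaf5* (-0.026 to 0.15), *Ndufs1* (-0.15 to 0.12), *Ndufs3* (-0.025 to 0.084), *Sdha* (-0.17 to 0.10), *Sdhaf4* (-0.037 to 0.13), *Sdhc* (-0.12 to 0.0091), *Sdhd* (-0.11 to 0.0020), *Uqcr11* (-0.13 to 0.046), *Uqcrc2* (-0.21 to 0.091), *Uqcrq* (-0.11 to 0.016) and *mt-Nd3* (-0.64 to 0.16). The set difference did so for *Atp5g2* (-0.23 to 0.043), *Atp5h* (-0.079 to 0.033), *Cox8a* (-0.033 to 0.13), *Sdhaf1* (-0.013 to 0.13), *Uqcrq* (-0.027 to 0.098), *mt-Nd1* (-0.13 to 0.24), *mt-Nd3* (-0.64 to 0.33) and *mt-Nd6* (-0.21 to 0.17). With 4 libraries per genotype and 20905502 reads in the shallowest, depth was least for the mt- genes that share their sequence, some at a few reads, and the cause of these shifts was not tested.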
